A study of Mus musculus with 6 samples.

Results

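The genes described here are 31 genes of the unfolded protein response of the endoplasmic reticulum, all of them read among the 22485 named genes of the array. They were measured in whole blastocysts of the B6C3F1 mouse on day 5; B6C3F1 is a hybrid of inbred strains. Dams 6 to 8 weeks old had been primed with 10 IU of mare serum gonadotropin and 48 hours later with 10 IU of hCG, and embryos were flushed from the oviduct on day 2 of pregnancy. They were then kept for 72 hours in CCM-30 medium with 400 nM of an oligonucleotide. The mimic group (3 arrays) had the mir-30d MIMIC and the scramble group (3 arrays) had Scramble-Alexa 488, a control RNA joined to a fluorescent dye. The experiment used 30 embryos per condition, and 50 ng of total RNA was labelled for each array. No untreated embryos are analysed here, so what both oligonucleotides do alike is not seen in the comparison. What the dye of the scramble control adds cannot be told apart from an effect of the mimic. The titles call the 3 samples of a group biological replicates, without saying which dams or culture runs they came from, and any p-value measures only the spread between these samples.

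The members were chosen by pathway knowledge with the mimic minus scramble differences of several of them already known, and each gene is read on its feature with the highest mean over the 6 arrays. The differences between mimic and scramble are therefore a description, and no p-value of a single member is given, although all 31 are among the genes in the fit. In the mimic group 27 of the 31 genes read higher than in the scramble group and 4 lower, where 53.2% of all 17399 genes tested read higher. The median log2 difference of the members was 0.28, and that of all genes was 0.02. In 9 members all 3 mimic arrays read above all 3 scramble arrays, which was so for 5.58% of all genes, and in 0 members did all mimic arrays read below, against 4.12% of all genes. A fit across all genes with limma called 0 of 17399 genes at an adjusted p of 0.05 (0%), and 0 of the members. At an unadjusted p of 0.05 it held 289 genes higher with the mimic (1.66%) and 263 lower (1.51%), among them 11 members on the higher side and 0 on the lower. Because the choice of members used this contrast, nothing is read from these counts.

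The unfolded protein response adjusts the folding capacity of the endoplasmic reticulum to the load of new secretory and membrane proteins. Its 3 sensors sit in the reticulum membrane. The kinase PERK (gene Eif2ak3) slows translation, the nuclease IRE1 (Ern1) splices the messenger of Xbp1, and ATF6 (Atf6) is cut in the Golgi to release a transcription factor. Their outputs raise chaperones, disulfide isomerases and the machinery that exports and degrades misfolded proteins. In the blastocyst, polarised trophectoderm and the matrix-secreting primitive endoderm depend on this secretory route.

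Many genes of this response carry the endoplasmic reticulum stress element (ERSE) before their start. It joins a CCAAT box, bound by the factor NF-Y, to a CCACG box, bound by ATF6. RefSeq promoter windows of build GRCm38.p6, 250 bases before to 50 bases after each gene start, matched 26 of the 31 members, and Atf6, Manf, Hyou1, Derl1 and Sec61a1 were not matched. The ERSE, searched on both strands as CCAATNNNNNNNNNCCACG, lay in the windows of 9 of the 26 members (34.6%) and in those of 37 of 27025 genes (0.137%). These members were Creld2, Hspa5, Hsp90b1, Dnajc3, Calr, Canx, Pdia6, Syvn1 and Derl3, and the 37 genes include them. The shares are a description, since the members were chosen by pathway knowledge and many genes of this pathway are known for the element. A second arrangement, ERSE-II, searched as ATTGGNCCACG, lay in the windows of Dnajb11 and Herpud1 and of 0.0444% of all genes. No member's window held TGACGTGG, a site of ATF6 and XBP1 found in 0.714% of genes, or TGATGNAAT, a site of ATF4 and its partners found in 1.08% of genes. At such shares 26 windows would seldom hold either, and sites more than 250 bases before a start were not searched. The members may therefore have these sites elsewhere. A match is a string of letters and was not measured as a binding site in these embryos.

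The stretches below run 5′ to 3′ on the strand of the gene and are shown because they hold the elements of 4 of the 5 members with an element whose mimic and scramble arrays did not overlap (Creld2, Derl3, Syvn1 and Herpud1), of the master chaperone Hspa5, of Hsp90b1 with its 2 copies, and of Dnajc3, which had the smallest difference of the matched members. Capitals mark the CCAAT and CCACG boxes that form an ERSE or ERSE-II, not every CCAAT box of a stretch. They read ATTGG and CGTGG where an ERSE lies on the other strand.
Creld2: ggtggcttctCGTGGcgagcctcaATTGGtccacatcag
Derl3: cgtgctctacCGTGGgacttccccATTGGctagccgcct
Syvn1: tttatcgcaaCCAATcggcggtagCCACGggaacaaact
Herpud1: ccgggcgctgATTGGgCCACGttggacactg
Hspa5: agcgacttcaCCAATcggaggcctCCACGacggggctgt
Hsp90b1: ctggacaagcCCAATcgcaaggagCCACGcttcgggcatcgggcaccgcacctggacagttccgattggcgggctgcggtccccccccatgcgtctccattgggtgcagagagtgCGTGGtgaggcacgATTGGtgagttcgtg
Dnajc3: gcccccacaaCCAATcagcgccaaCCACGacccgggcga

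In GRCm38.p6 these stretches lie at chr15:88819510-88819548 on the plus strand (Creld2), chr10:75893232-75893270 on the plus strand (Derl3), chr19:6046522-6046560 on the plus strand (Syvn1) and chr8:94386367-94386397 on the plus strand (Herpud1). That of Hspa5 is at chr2:34772015-34772053 on the plus strand, that of Hsp90b1 at chr10:86705523-86705666 on the minus strand and that of Dnajc3 at chr14:118937817-118937855 on the plus strand. All of them lie before the annotated start of their gene. Counting the first base of a gene as 0, the ERSE was nearest to the start in Syvn1 (from -44 to -26) and Hspa5 (from -65 to -47). It was farthest away in the outer copy of Hsp90b1 (from -212 to -194). The ERSE-II of Dnajb11 was the only match after the start, from 7 to 17.

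**Figure D1:**
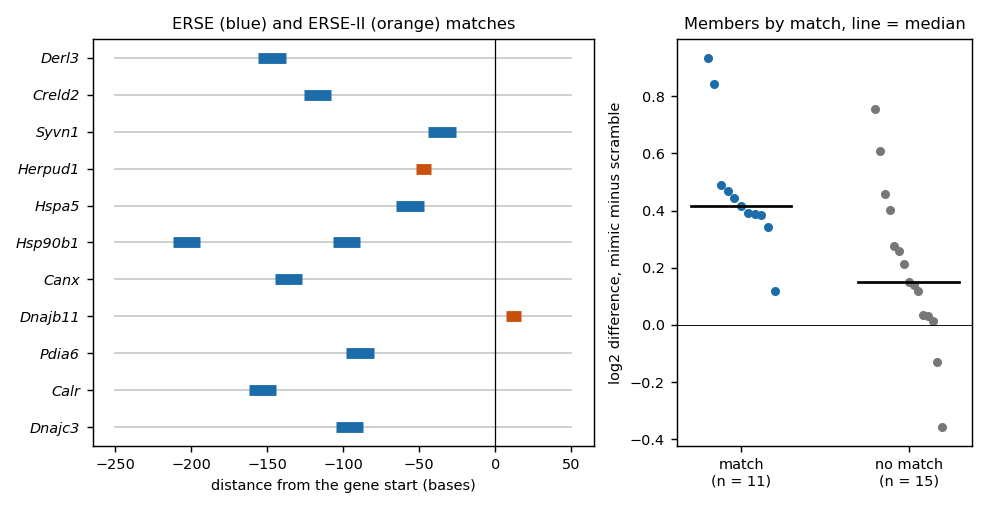
Left, positions of the ERSE (blue) and ERSE-II (orange) matches in the 300-base promoter windows of the 11 members that hold one, as the distance in bases from the gene start (vertical line). Right, the log2 difference of each member with a match (n = 11, median 0.41) and without one (n = 15, median 0.15), each point being 1 gene and each horizontal line a median.

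The 11 members with an ERSE or ERSE-II all read higher in the mimic group, with log2 differences from 0.12 (Dnajc3) to 0.93 (Derl3) and a median of 0.41. Of the 15 members with a window and neither element 13 read higher, from -0.36 (Ddit3) to 0.75 (Sdf2l1), with a median of 0.15. The ranges overlap widely, and the difference between these medians was not tested, since the differences themselves had a part in choosing the members.

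The 3 members grouped as secreted and lumenal factors induced by stress of the reticulum had every mimic array above every scramble array. The same was so for 5.58% of all genes. Nothing is read from this count, since differences of several members were known when they were chosen. Manf, which encodes a secreted survival factor kept in the reticulum by its calcium, read 10.10, 9.96 and 9.97 (log2 signal) in scramble replicates 1 to 3 and 10.78, 10.84 and 10.50 in mimic replicates 1 to 3. The scramble arrays lay within a narrow band and every mimic array was above it. Its means were 10.01 ± 0.07 (SD, n = 3) and 10.71 ± 0.18 (SD, n = 3), a log2 difference of 0.70 (SE 0.14), or 1.62-fold. Creld2, a disulfide isomerase-like protein that binds Manf, read 11.67, 12.03 and 12.00 with scramble and 12.40, 13.31 and 12.52 with the mimic. Mimic replicate 2 was the highest by a wide margin and scramble replicate 1 the lowest. The log2 difference of Creld2 was 0.84 (SE 0.24), it was 0.56 without mimic replicate 2, and its 10 features gave values from 0.76 to 0.85. Sdf2l1, a partner of the chaperone BiP, read 8.00, 8.65 and 8.90 with scramble and 9.58, 9.11 and 9.12 with the mimic. Its lowest and highest readings were both on arrays numbered 1. The log2 difference of Sdf2l1 was 0.75 (SE 0.29), with 0.50 when scramble replicate 1 was left out and 0.34 when both arrays numbered 1 were.

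**Figure D2:**
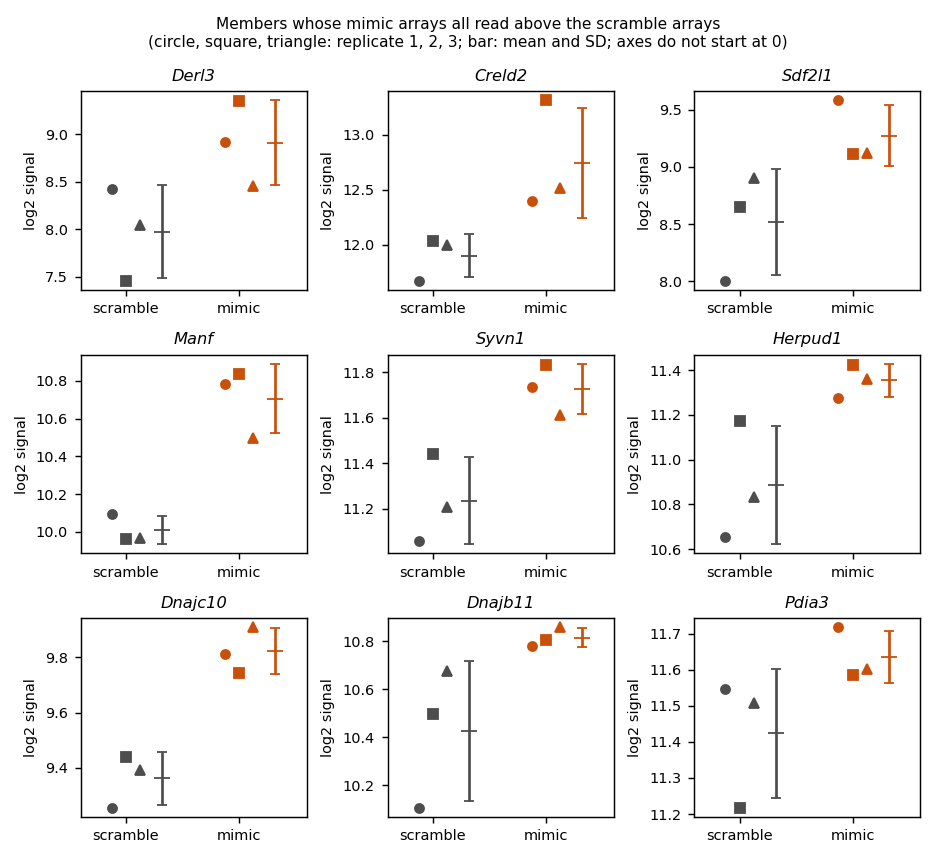
Log2 signal of the 9 members whose mimic arrays all read above the scramble arrays, 1 panel per gene, with a circle, square and triangle for replicates 1, 2 and 3 of each group and a bar for the mean and SD (n = 3), each panel on its own scale that does not start at 0. Manf and Dnajc10 have scramble values within a narrow band, while the gap between the lowest scramble array and the next is widest in Sdf2l1 (8.00 against 8.65) and Derl3 (7.46 against 8.05).

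The messengers of the 3 sensors differed by less than the SE of the difference in the fit without pairing. Eif2ak3 had a log2 difference of 0.15 (SE 0.23), and 0.01 when scramble replicate 1 was left out. Ern1 read 8.31, 8.17 and 8.02 with scramble and 7.64, 8.16 and 8.30 with the mimic, and its difference of -0.13 (SE 0.30) became 0.07 without mimic replicate 1. Atf6 read 6.76 in scramble replicate 1 and 7.16 in mimic replicate 1, but between 8.05 and 8.30 on the other arrays. Its log2 difference was 0.23 (SE 0.47) and turned to -0.22 without scramble replicate 1. Within each replicate number the mimic array of Atf6 was higher, by 0.40, 0.12 and 0.18, and with the replicate number as a block the SE was 0.23. Activation of these sensors is by protein changes that an array of messengers does not read.

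Of the 2 transcription factors, Xbp1 read higher in the mimic group and Ddit3 lower. Xbp1, the target of IRE1 splicing, read 11.74, 11.98 and 11.80 with scramble and 11.96, 12.29 and 12.05 with the mimic. The highest scramble array was just above the lowest mimic array, so the groups overlapped, and the log2 difference was 0.26 (SE 0.14), or 0.16 without mimic replicate 2. The annotation used does not say whether its feature reads the spliced form. Ddit3, which encodes the pro-apoptotic factor CHOP at the end of the PERK branch, read 9.37, 8.89 and 9.03 with scramble and 8.33, 9.03 and 8.86 with the mimic. The 2 arrays numbered 1 were its extremes, with log2 signal of 9.37 and 8.33. Its log2 difference was -0.36 (SE 0.26), and without both of those arrays it was -0.01.

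The large lumenal chaperones Hspa5 and Hsp90b1 read higher with the mimic, without complete separation of the arrays. Hspa5, the Hsp70 chaperone BiP that also holds the sensors inactive, read 13.06, 13.06 and 13.30 with scramble and 13.24, 13.92 and 13.59 with the mimic. Its log2 difference was 0.45 (SE 0.19), or 1.36-fold, and 0.28 without mimic replicate 2. Hsp90b1, the Hsp90 chaperone GRP94, read 12.27, 12.60 and 12.77 with scramble and 12.61, 13.06 and 13.20 with the mimic. Within each replicate number the mimic array of Hsp90b1 was higher, by 0.34, 0.47 and 0.43. Hyou1, the large Hsp70-related nucleotide exchange factor of BiP, was dim. It read 8.78, 7.52 and 7.16 with scramble and 7.69, 7.73 and 7.77 with the mimic. Apart from scramble replicate 1 these readings were close to the median of features without a gene name (7.22). Its difference of -0.09 (SE 0.42) became 0.39 without scramble replicate 1, and neither value says whether Hyou1 differed.

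The DnaJ proteins, which pass unfolded clients to BiP, all had positive differences. Dnajc10, a reductase that breaks wrong disulfide bonds, read 9.26, 9.44 and 9.39 with scramble and 9.81, 9.74 and 9.91 with the mimic. Both groups were tight and apart, and the log2 difference was 0.46 (SE 0.16). A second, dimmer feature of Dnajc10 gave -0.36, with 9.45 on scramble replicate 1 and from 7.83 to 8.61 on the other arrays, so the features disagree. Dnajb11, a stable partner of BiP, read 10.11, 10.50 and 10.68 with scramble and 10.78, 10.80 and 10.86 with the mimic. The mimic arrays agreed closely and the highest scramble array was just below them. The log2 difference of Dnajb11 was 0.39 (SE 0.16), and 0.23 without scramble replicate 1. Its second feature, among the dim ones left out of the fit, gave -0.16. Dnajc3, the inhibitor of PERK also called p58IPK, had 0.12 (SE 0.21), and 0.04 without mimic replicate 2. Dnajb9, which restrains IRE1, had 0.14 (SE 0.32), turned to -0.13 without scramble replicate 1, and gave -0.69 on its second feature.

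The lectin chaperones and the disulfide isomerases were higher on average in the mimic group, 6 of 6. Calr and Canx, the soluble and the membrane-bound lectins that hold glycoproteins while they fold, had log2 differences of 0.34 (SE 0.14) and 0.39 (SE 0.17). Calr failed to separate the groups by 1 array, scramble replicate 3 at 11.76 against mimic replicate 3 at 11.75. Pdia3, the isomerase that works with both lectins, read 11.55, 11.22 and 11.51 with scramble and 11.72, 11.59 and 11.60 with the mimic. The groups of Pdia3 did not overlap, but its log2 difference was only 0.21 (SE 0.13), and 0.11 without scramble replicate 2. Pdia6, which attenuates IRE1 and PERK, had 0.39 (SE 0.28) on its brightest feature and 0.88 on a dimmer one, and the former was 0.15 without mimic replicate 2. Pdia4 had 0.40 (SE 0.43), which was -0.0032 without scramble replicate 1, and P4hb, the founding isomerase of the family, had 0.28 (SE 0.29), which was 0.02 without mimic replicate 2.

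The genes of reticulum-associated degradation divided. Syvn1, the ubiquitin ligase HRD1, read 11.06, 11.44 and 11.21 with scramble and 11.73, 11.83 and 11.61 with the mimic. Its log2 difference was 0.49 (SE 0.14). Herpud1, a membrane protein that organises the ligase complex, read 10.65, 11.18 and 10.83 with scramble and 11.28, 11.42 and 11.36 with the mimic, and its difference was 0.47 (SE 0.15). Every mimic array of Syvn1 and Herpud1 was above every scramble array, with scramble replicate 2 the nearest in both. Derl3, a derlin of the retrotranslocation channel, read 8.43, 7.46 and 8.05 with scramble and 8.92, 9.36 and 8.46 with the mimic. Its log2 difference of 0.93 (SE 0.36), or 1.91-fold, was the highest of the members. However, the lowest mimic array was only just above the highest scramble array, and without both arrays numbered 2 the difference was 0.45. The 7.46 of scramble replicate 2 was close to the median of features without a gene name (7.22). Sel1l, the adaptor of HRD1, had 0.61 (SE 0.41), and 0.21 when scramble replicate 1 was left out, whose reading of 7.31 was the lowest. Edem1, which hands over mannose-trimmed glycoproteins, had 0.03 (SE 0.30), with values from -0.18 to 0.34 when single arrays were left out, and the derlins Derl1 and Derl2 had -0.02 (SE 0.16) and 0.03 (SE 0.12). Within the derlin family Derl3 alone differed by more than its SE.

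The translocon genes were close to level. Sec61a1 and Sec61b, which encode the pore-forming and the beta subunit of the protein-conducting channel, had log2 differences of 0.04 (SE 0.14) and 0.01 (SE 0.12). Ssr1, the alpha subunit of the translocon-associated TRAP complex, had 0.12 (SE 0.18). The 3 features of Ssr1 went from -0.09 to 0.32.

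**Figure D3:**
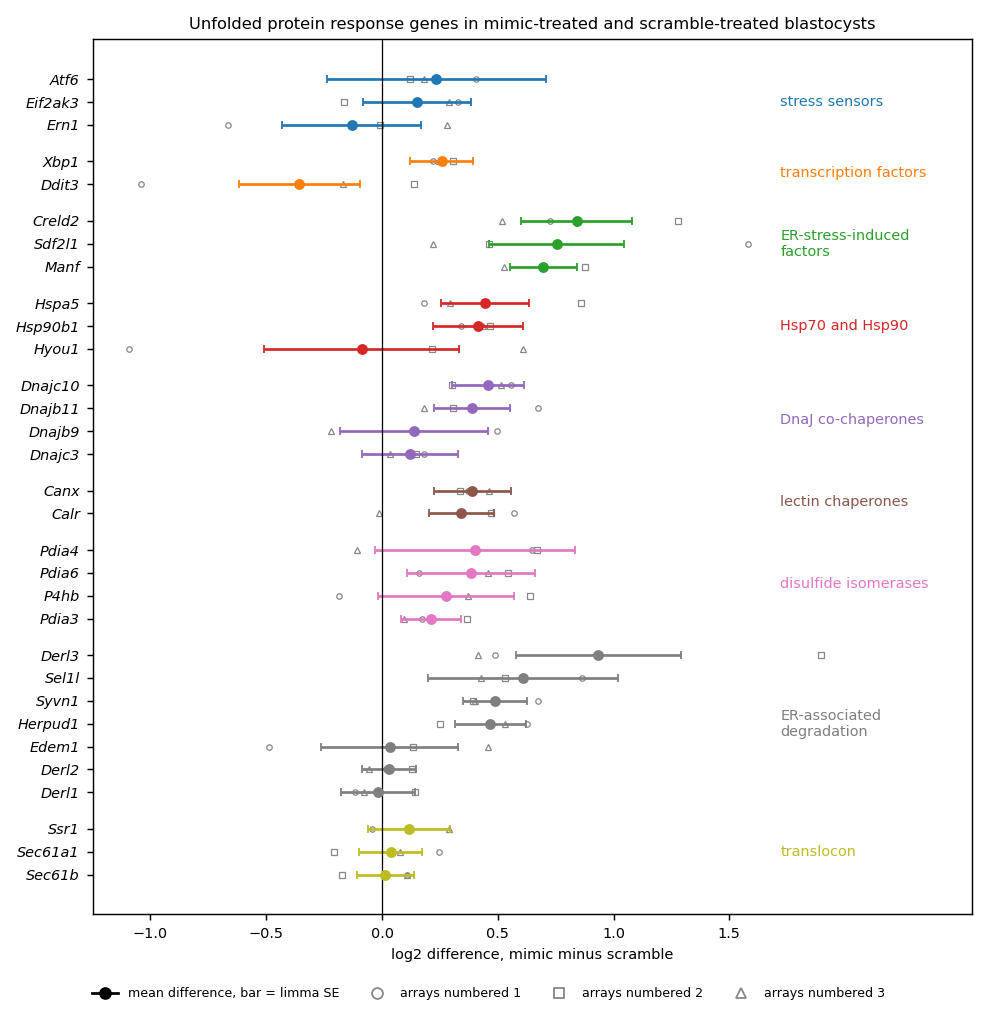
Log2 difference (mimic minus scramble) of the 31 members grouped by role, with the limma standard error as a bar and an open circle, square and triangle for the difference between the arrays numbered 1, 2 and 3. The induced factors Creld2, Sdf2l1 and Manf lie at 0.70 to 0.84, and the translocon genes lie near 0.

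Between arrays of the same replicate number the mimic array read higher in 24 of the 31 members for replicate 1, in 27 for replicate 2 and in 25 for replicate 3, with median differences of 0.33, 0.31 and 0.29. Over all genes the shares were 52.5%, 50% and 57%. In 17 members the mimic array was higher under all 3 numbers, and in 0 was it lower under all 3, while 19.1% of all genes were higher under all 3. The 17 included Atf6, Xbp1, Hspa5, Hsp90b1, Canx, Pdia6, Dnajc3 and Sel1l besides the 9 members without overlap.

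The arrays of a group were not alike for these genes. The members' median deviation from each gene's mean over 6 arrays was -0.33 in scramble replicate 1, -0.03 in scramble replicate 2 and -0.04 in scramble replicate 3. In mimic replicates 1 to 3 it was -0.02, 0.21 and 0.20. Scramble replicate 1 gave the lowest reading of 18 of the 31 members, against 31.9% of all genes, and mimic replicate 2 gave the highest reading of 13, against 14.7% of all genes. Scramble replicate 1 and mimic replicate 1 also stood apart across the array, with 8.85% and 4.27% of named features more than 1 log2 unit from the feature's median, compared with 0.076% to 0.787% on the other 4 arrays. The same arrays hold the fewest distinct values, 2108 and 2683 against 4410 to 5979 on the others. The part of this in the members' differences was not tested. Without scramble replicate 1, 24 members read higher and the median was 0.21. Without both arrays numbered 1, 27 members read higher and the median was 0.28, with 55% of all genes higher.

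**Figure D4:**
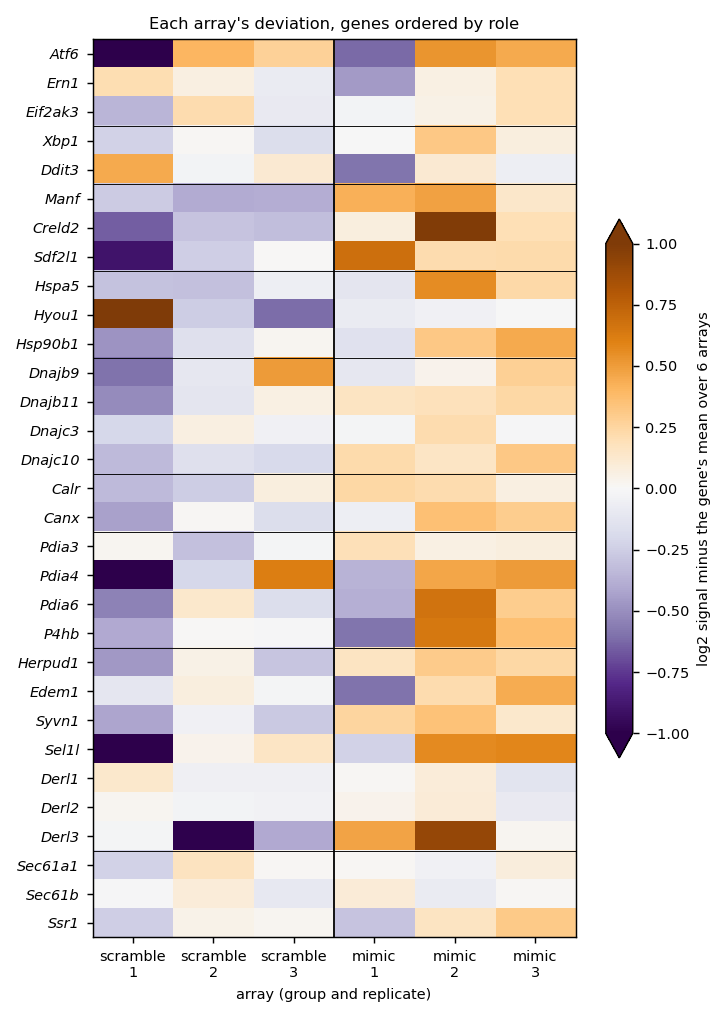
Log2 signal of each member minus its mean over the 6 arrays, with arrays in columns and genes in rows ordered by role (orange above, purple below the mean, colours saturating at 1 log2 unit). Scramble replicate 1 is the lowest column (median -0.33) and mimic replicates 2 and 3 the highest (0.21 and 0.20), while the translocon rows stay pale.

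Other genes of the same pathway were listed by textbook role, with earlier results of these data known. The lists had medians between 0.03 and 0.24, and limma called 0 of their genes at an adjusted p of 0.05. Over all genes tested the median was 0.02, and 53.2% read higher. Of 37 other chaperones and folding enzymes tested 25 read higher and 12 lower, and the median of the list was 0.11 on the log2 scale. Sdf2, a relative of Sdf2l1, had 0.25 (SE 0.11), and Serp1, which protects nascent membrane proteins, had 0.32 (SE 0.16). Of 33 other degradation genes 23 read higher, with a median of 0.08, among them the extracting ATPase Vcp (0.27, SE 0.14) and its membrane anchor Selenos (0.41, SE 0.21). Of 35 genes of the translocon, signal peptidase, glycosylation and signal recognition 27 read higher, with a median of 0.10, and Srp72 and Ostc had 0.38 (SE 0.17) and 0.48 (SE 0.22). In the PERK, ATF4 and CHOP branch 15 of 20 read higher, with a median of 0.24, among them Cebpb (0.54, SE 0.18) and Atf4 (0.82, SE 0.31). Without both arrays numbered 1 the median of this branch was 0.12, that of the translocon list 0.05, that of the chaperones 0.11 and that of the degradation genes 0.09. Of 11 other sensors, proteases and transcription factors 7 read higher, with a median of 0.03 (0.06 without those arrays), and Creb3l1 and Bhlha15 had 0.62 (SE 0.30) and 0.58 (SE 0.32). Unadjusted p in limma was under 0.05 in 3 genes of the PERK branch, 1 of the translocon list and 0 of the other 3 lists. All of these were higher with the mimic. Over all genes tested the shares were 1.66% higher and 1.51% lower. Nothing is read from the counts of these lists.

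Whole blastocysts mix lineages, and in such bulk samples a change in the number of cells of a type cannot be told apart from a change in RNA per cell. Among markers of the primitive endoderm, the lineage that secretes basement membrane, 17 of 21 read higher in the mimic group, and the median was 0.20 on the log2 scale (0.14 without both arrays numbered 1). Their summed linear signal was 61475 to 97366 in scramble arrays and 77460 to 108366 in mimic arrays, with overlap between the groups. Within the list Cubn had 0.52 (SE 0.16) and Dab2 -0.47 (SE 0.14), and Ttr was the 1 marker too dim to be tested. Trophectoderm markers had 9 of 20 higher and a median of -0.03 (-0.09 without both arrays numbered 1), with Plac1 at 0.59 (SE 0.17) and Hand1 at 1.07 (SE 0.41). Inner cell mass and epiblast markers had 8 of 17 higher and a median of -0.06 (-0.13 without those arrays), with Dppa3 at -0.64 (SE 0.31) and Nanog at -0.34 (SE 0.17). The part of the lineage make-up in the members' differences was not tested. Markers of all 3 lineages were read, as the label of whole blastocyst has it.

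Of markers of cells that could be carried over from the tract, some were too dim to test. Tested were 4 of 9 cumulus genes on the array, 6 of 9 oviduct genes and 5 of 9 blood genes, with medians of 0.13, -0.10 and -0.15 (0.16, -0.13 and -0.24 without both arrays numbered 1). Among the untested were the cumulus genes Ptx3 and Fshr, the oviduct gene Pax8 and the blood genes Hba-a1 and Cd68. The summed linear signal of the tested cumulus markers was 544 to 817 with scramble and 633 to 730 with the mimic, that of the oviduct markers 4375 to 5004 and 4479 to 4572, and that of the blood markers 1829 to 6925 and 1512 to 4644. In each of these lists the summed signals of the 2 groups overlapped. Of single genes, Has2 (1 of 4 cumulus genes) had all mimic arrays above all scramble arrays. Krt5 and Foxj1 (2 of 6 oviduct genes) had all of them below, and no blood gene had either. The shares of all genes were 5.58% above and 4.12% below. The genes with the smallest p were Ptgs2 (0.30, SE 0.20) and Has2 (0.23, SE 0.21) for cumulus, Krt5 (-0.76, SE 0.29) and Foxj1 (-0.39, SE 0.21) for oviduct, and Cd79a (-0.17, SE 0.23) and Hbb-b1 (-0.15, SE 0.23) for blood. Scramble means of these genes were 7.14 (Ptgs2), 7.22 (Has2), 7.62 (Krt5), 7.47 (Foxj1), 7.28 (Cd79a) and 7.25 (Hbb-b1). The median level of features without a gene name was 7.22. Their readings, differences and separations therefore do not show that these genes were detected, and the summed signals include this background level.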

How the data were processed

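The table deposited by the authors holds log2 signal of 45220 features on 6 1-colour (Cy3) arrays. How the signals were extracted and normalized is not given in the sources. Array medians of 7.37 to 7.38 show a common scale, on which a change shared by most genes cannot be seen. The number of arrays limits the precision (median SE 0.249). The log2 scale was read from the values, and no detection flags were used, so dim genes have no known detection limit.

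Features were named from the platform annotation (33026 with 1 gene, 12194 with none), with symbols updated by Entrez identifier through a RefSeq table of GRCm38.p6. The lowest 25% of named features by mean were left out (24769 kept), and the brightest feature of each gene was used (17399 genes, including all 31 members). Of the members 22 had 1 feature and 9 had several. limma 3.58.1 in R 4.3.3 (eBayes with trend, two-sided, Benjamini-Hochberg adjustment over all genes) gave differences and SEs, and was tested on simulated data. Members and lists were chosen with earlier results of these data known. The genes named are all members and, per other list of the report, the 2 with the smallest unadjusted p. Across genes, what sets an array apart from its group mean correlated between arrays of equal number at 0.33, 0.35 and 0.20 (replicates 1 to 3). Between unlike numbers it was 0.19 (scramble 2, mimic 3), 0.12 (scramble 3, mimic 2) and negative for the other 4. By the rule that each same-numbered correlation exceed 0.1, the numbers were taken to pair the arrays. The positive correlations between replicates 2 and 3 also exceed 0.1, so the rule does not settle which of these arrays belong together. The pairing rests on the data, not on the labels, and the fit without the block stayed the main one. SEs come from that fit unless the block is named, and the block made some of them much smaller. With it the SE was 0.10 in place of 0.28 for Pdia6 and 0.22 in place of 0.41 for Sel1l. For P4hb it was 0.16 in place of 0.29, while for Sdf2l1 it stayed at 0.29. Figures were drawn with matplotlib 3.10.9.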

Additional observations from a re-analysis of the deposited data

How the results depend on the processing

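Over the alternatives run, the members reading higher with the mimic numbered 24 to 27 when single arrays were dropped and 26 after quantile normalization. Their median log2 difference lay between 0.16 (without mimic replicate 2) and 0.40 (without scramble replicate 3 or mimic replicate 1). The number of genes called was 0 throughout, except 1 with the replicate block (Ctsll3, not a member), where genes with an unadjusted p under 0.05 went from 552 to 1260 and members from 11 to 15. Members with all mimic above all scramble arrays numbered 9 to 19 when single arrays were dropped, while the genes of this kind among all 17399 went from 971 to between 1538 and 2552. They were 20, 15 and 14 with both arrays numbered 1, 2 and 3 left out, against 3568, 3115 and 2250 of all genes, since fewer arrays make overlap rarer by construction. In 4 of these 9 settings 1 member lay wholly below. Members with the ERSE were 9 also before the start alone. Of the 26 members with a window 21 had a CCAAT box (80.8%, against 41.1% of all genes). A CCACG box lay in 20 (76.9%, against 35.5%). Single members moved by no more than the SD within groups in 520 of 527 instances, which says little about stability. The replicate block, the other filters on dim probes and eBayes without trend leave a member's difference as it was. Dropping 1 of 3 arrays of a group cannot move a difference past that SD, so Pdia4 and Atf6 below count as unmoved. Some differences changed sign: without scramble replicate 1 that of Pdia4 went from 0.40 to -0.0032 and that of Atf6 from 0.23 to -0.22, as did those of Dnajb9, Sec61a1, Hyou1, Derl1 and Edem1, which were nearer 0, and Ern1, Sec61b, Derl2 and Ssr1 under other settings. Counted over all its features, Dnajc10 had 0.05 and Dnajb9 -0.27.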

Other observations

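Genes that carry the same promoter element and are not members were looked at after the data had been examined. An ERSE or ERSE-II lay in the windows of 38 genes that are not members, of which 23 were tested. In the mimic group 12 of them read higher and 11 lower (52.2% higher), with a median log2 difference of 0.01 and a range from -0.61 (Rnf151) to 0.56 (Lrif1). Over all 13332 tested genes with a window 53.6% read higher, with a median of 0.02. Those named here were chosen after their values were seen. Among the 23 were genes of the reticulum, such as Ero1b, an oxidase that recharges the disulfide isomerases, at 0.44 (SE 0.29), Alg12, a mannosyltransferase of glycan assembly, at 0.23 (SE 0.27), Nucb1 at 0.08 (SE 0.17), Krtcap2, a subunit of the oligosaccharyltransferase, at 0.06 (SE 0.14) and Calr4, a relative of calreticulin, at -0.09 (SE 0.21). Alg12 starts head to head with Creld2, and its window holds the ERSE of Creld2, so the 2 genes share 1 element. The window of the untested 1700122E12Rik likewise holds the ERSE of the member Calr. The smallest unadjusted p were those of Rnf151 (-0.61, SE 0.30), Acnat2 (-0.59, SE 0.31) and Pan2 (0.44, SE 0.23). None of them passed in limma, at an adjusted p of at least 0.972.

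Neighbours that start head to head with a member on the other strand were tested for 3 members. Alg12 starts 328 bases from Creld2 and had a log2 difference of 0.23 (SE 0.27), against 0.84 for Creld2. Catsper2 starts 110 bases from Pdia3 and had 0.22 (SE 0.23), against 0.21 for Pdia3. Mis12 starts 308 bases from Derl2 and had 0.0021 (SE 0.29), against 0.03 for Derl2.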
